A study of Homo sapiens with 4 samples.

Results

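The genes described here form the core engine of cell division: 37 cyclins, cyclin-dependent kinases (CDKs), E2F and pocket proteins, CDK inhibitors, phosphatases, mitotic kinases and proliferation markers. They were chosen by name, and their m6A peaks are the rows with those gene symbols in 2 deposited peak lists. The cells were RPMI-8226, a long-established line grown from human multiple myeloma, transduced with lentivirus for a hairpin against ALKBH5 (shALKBH5) or for the hairpin called shNC. ALKBH5 is an RNA demethylase that takes the methyl group off N6-methyladenosine (m6A). Each list rests on 1 library of RNA pulled down with an m6A antibody (IP) and 1 library of the RNA before pull-down (input), so there were 4 libraries and no replicates. Of the 37 genes, 29 had a peak in at least 1 list, and each list held 24 of them. They held 46 of the 22448 shNC peaks and 45 of the 24626 shALKBH5 peaks.

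In the cell cycle, D-type cyclins with CDK4 or CDK6 and then E-type cyclins with CDK2 phosphorylate the pocket protein RB1, which frees E2F factors to switch on S phase genes. Cyclin A and the B-type cyclins with CDK1 drive mitosis, WEE1 and the CDC25 phosphatases set the CDK1 switch in opposite directions, and the anaphase-promoting complex with CDC20 or FZR1 ends mitosis by marking cyclins and kinases for destruction. m6A is a mark placed within messenger RNA, often near the stop codon and in the last exon, and it influences how long an RNA lives and how it is translated. D-type cyclins are of particular interest in myeloma, where chromosome rearrangements often raise one of them.

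A peak has 3 values here. Its fold is the enrichment of IP relative to input and its log10 p is the strength of that enrichment, both as the authors' peak tables give them, and its borders are hg38 coordinates counted from 1. A peak had a partner when its blocks shared at least 1 base with a peak of the other list. With 1 list per condition there is no test between conditions, and folds of the lists stand side by side below without being compared. The tables hold no read counts, so depth is unknown. Each interval in parentheses is a 95% Clopper-Pearson (exact binomial) interval counted over peaks or genes and covers counting error only. A peak needs both enough RNA and enough enrichment. RNA levels are not in these tables, and a smaller share of cells in a cycle phase and less RNA per cell cannot be told apart. Nor do the tables measure how far ALKBH5 was lowered. As a check of the labelled cell type, 6 of 8 plasma cell markers had peaks in both lists (SDC1, IRF4, PRDM1, XBP1, CD38 and MZB1), while TNFRSF17 and SLAMF7 had none. Of markers of other lineages, peaks were listed for 1 of 6 T and NK cell genes (CD8A), 2 of 5 myeloid genes (ITGAM and CD68) and 1 of 3 stromal genes (PDGFRB).

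The stretches that follow show where peaks met the first bases of 6 of these genes, to give the bases behind the start peaks described further on. Of the 9 shALKBH5 peaks of the group without a partner, 4 were at a listed start (44.4%, against 31.3% of all such peaks). Each runs 5′ to 3′ on the transcript strand from 50 bases before a RefSeq start through the first 30 bases from that start, read from the RefSeq promoter table of GRCh38.p14. Bases under the peak of the named list are in capitals. E2F2 (chr1:23531204-23531283, minus strand), CCND3 (chr6:41941779-41941858, minus), CCNE1 (chr19:29811941-29812020, plus) and CDC25B (chr20:3795739-3795818, plus) had a peak there for shALKBH5 alone. BUB1B (chr15:40161019-40161098, plus) and FZR1 (chr19:3506261-3506340, plus) had one in both.
E2F2, shALKBH5: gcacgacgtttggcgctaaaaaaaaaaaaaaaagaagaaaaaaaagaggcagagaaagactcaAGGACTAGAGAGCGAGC
CCND3, shALKBH5: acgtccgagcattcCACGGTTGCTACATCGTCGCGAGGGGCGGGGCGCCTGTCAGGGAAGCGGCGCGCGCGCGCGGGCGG
CCNE1, shALKBH5: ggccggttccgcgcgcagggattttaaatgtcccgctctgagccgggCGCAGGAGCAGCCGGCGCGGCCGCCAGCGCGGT
CDC25B, shALKBH5: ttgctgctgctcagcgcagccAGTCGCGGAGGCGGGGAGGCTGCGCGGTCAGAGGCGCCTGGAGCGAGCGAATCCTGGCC
BUB1B, shNC: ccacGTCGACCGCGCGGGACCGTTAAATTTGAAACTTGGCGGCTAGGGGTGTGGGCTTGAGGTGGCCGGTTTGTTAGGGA
BUB1B, shALKBH5: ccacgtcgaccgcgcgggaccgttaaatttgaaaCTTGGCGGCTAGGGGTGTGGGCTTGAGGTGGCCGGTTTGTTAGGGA
FZR1, shNC: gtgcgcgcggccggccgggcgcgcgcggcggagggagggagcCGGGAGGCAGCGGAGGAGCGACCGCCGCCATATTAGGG
FZR1, shALKBH5: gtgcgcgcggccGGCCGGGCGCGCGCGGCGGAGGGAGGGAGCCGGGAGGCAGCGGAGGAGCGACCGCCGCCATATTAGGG

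Only genes with a peak reaching into the printed stretch are shown, so the short distances at these 6 genes follow from that choice. Other start peaks began further in, such as 206 bp downstream of the start at E2F3 and 439 bp at CDKN1B in the shNC list. The edge was 13 bp downstream of the start at E2F2 and 36 bp upstream at CCND3, 3 bp upstream at CCNE1 and 29 bp upstream at CDC25B. At BUB1B it was 46 bp upstream in the shNC list and 16 bp upstream in the shALKBH5 list, and at FZR1 8 bp and 38 bp upstream. Of the printed stretches, only that of E2F2 holds GGACT, a common m6A sequence, under its peak. The stretches hold only a part of each peak, from 17 of 151 bases at E2F2 to 76 of 240 at BUB1B in shNC. The rest of each peak was not read, so GGACT may also lie there. That motif was found on the transcript strand in the first 30 bases from 2 of 49 starts of these genes and from 2.7% of all 35116 starts in the table.

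The 37 genes and their numbers of peaks are drawn gene by gene in the bar plot of peaks per gene. Of the 29 genes with a peak, 19 were in both lists (65.5%, 45.7 to 82.1%), against 83% of all genes with a peak. A gene counted here needs no common site, and the CDC14B peaks of the lists shared 0 bases. Another 5 genes were listed for shNC alone and 5 for shALKBH5 alone. Each of these sets of 5 is 17.2% (5.85 to 35.8%), against 5.50% of all 12779 gene symbols with a peak that stood only in the shNC list and 11.5% that stood only in the shALKBH5 list. The 83% and the 5.50% over all genes fall just outside the intervals of the group, and the 11.5% falls inside. The shNC-only genes were RB1, CDKN1A, AURKB, TOP2A and CDC14A. The shALKBH5-only genes were CCND3, CCNE1, CCNE2, CDK2 and CCNB1. The 8 genes with no peak in either list were CCNA2, CCNB2, CDK1, RBL2, CDKN2C, PLK1, BUB1 and CDC20. When weak peaks under 2 times the lowest listed fold were set aside, 3 genes stood only in the shALKBH5 list (CCND3, CCNE1 and CCNE2) and 4 only in the shNC list (RB1, CDC14A, CDK4 and TTK).

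**Figure D1:**
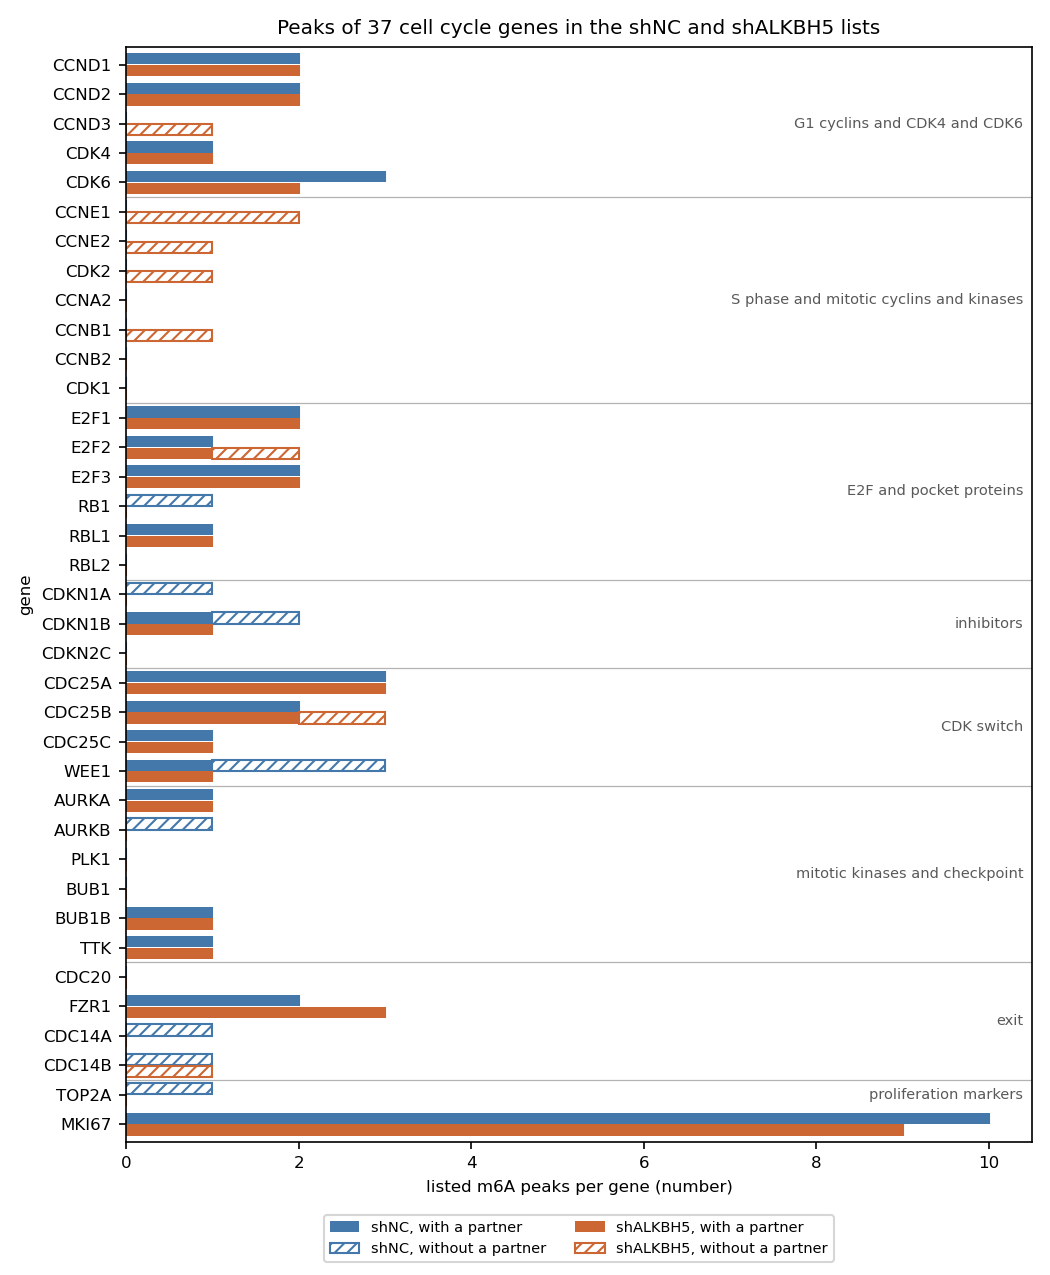
Number of listed m6A peaks (x axis) of each of the 37 genes, grouped by role, in the shNC list (blue) and the shALKBH5 list (orange). Filled bars are peaks with a partner in the other list and hatched bars are peaks without one; MKI67 has 10 and 9 peaks, and no gene among the S phase and mitotic cyclins and their kinases has a bar in blue.

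The cyclins and kinases of G1 all had peaks. CCND1, the D-type cyclin raised in myeloma by rearrangement with the immunoglobulin heavy chain locus, had a peak at its start and one in the last part of the gene in both lists. The CCND1 start peak, from 69641147 on chromosome 11, had 2.83-fold enrichment (log10 p -13.8) in shNC and 4.01-fold (log10 p -18.6) in shALKBH5. The other CCND1 peak, from 69651145, had 2.16-fold (log10 p -17.5) in shNC and 2.45-fold (log10 p -13.8) in shALKBH5. CCND2, the D-type cyclin raised in many other myelomas, showed the same layout. Its stronger peak had identical borders in both lists (chromosome 12, 4300320 to 4300589) with 4.56-fold enrichment (log10 p -95.7) in shNC and 4.27-fold (log10 p -102) in shALKBH5. The CCND2 start peak was weak by fold (1.45 for shNC and 1.85 for shALKBH5) and shares bases with a peak of AC008012.1 on the same strand, so its gene is uncertain.

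CCND3 stood apart from the other D-type cyclins, with a single peak that was listed only for shALKBH5. It lies at chromosome 6, 41941664 to 41941844, with a fold of 4.32, a log10 p of -9.55 and an FDR of 2.69e-09. The RefSeq span of CCND3 begins far upstream, 108191 bp from this peak, yet the peak covers another listed start of the gene at 41941808, as its printed stretch shows. CDK6, a partner kinase of these cyclins, had peaks near its 5′ end and in its last part in both lists. The CDK6 peak from 92833193 on chromosome 7 had 5.78-fold enrichment (log10 p -23.8) for shNC, where it covers 271 bases, and 8.84-fold (log10 p -33.7) for shALKBH5, where it covers 540. This wider shALKBH5 peak also shares bases with a further CDK6 peak of the shNC list, 92833642 to 92835084. That spliced shNC peak had 4.1-fold enrichment (log10 p -4.02), so the same stretch was cut differently in the lists. The CDK6 peak in the last part had 2.48-fold (log10 p -3.77) in shNC and 4.93-fold (log10 p -16.9) in shALKBH5. CDK4, the other partner kinase, had a weak peak near its gene end in both lists, with folds of 2.96 and 2.14. An opposite-strand peak of TSPAN31 covers the same bases, and the sources used here do not say whether reads kept their strand, so the CDK4 peak is uncertain.

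Among the 7 cyclins and kinases of S phase and mitosis, 0 had a peak in the shNC list and 4 had a peak in the shALKBH5 list. Over all genes with a peak, 11.5% stood only in the shALKBH5 list. With 7 genes, and with peaks below the middle of their list as described next, nothing particular to this role is read from the count. CCNE1, cyclin E1, had a peak at its start (chromosome 19, 29811988 to 29812138) with 6.15-fold enrichment (log10 p -6.18), and one near its end (29823678 to 29823828) with 2.3-fold (log10 p -3.89). CCNE2, cyclin E2, had one spliced peak of 120 bases on chromosome 8, 94893950 to 94894119, with 2.56-fold enrichment (log10 p -3.65). CDK2, the kinase that both E-type cyclins activate, had a peak at chromosome 12, 55971556 to 55971736, with 1.7-fold enrichment (log10 p -13.6). CCNB1, cyclin B1, had a peak at chromosome 5, 69174966 to 69175085, with 1.24-fold enrichment (log10 p -5.28). These 5 peaks of the E-type cyclins, CDK2 and CCNB1 ranked below the middle of their list by p and by fold, some only slightly. Their log10 p was stronger than that of 47.4% of the list at CDK2 and of 10.0 to 27.8% at the others. By fold, the CCNE1 start peak was above 47.2% of the list and the CCNB1 peak above only 0.114%. The FDR ran from 2.51e-13 at CDK2 to 0.00145 at CCNE2. Cyclin A2, cyclin B2 and CDK1 had no listed peak.

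E2F factors carried some of the strongest peaks of the group. E2F2, an activator of S phase genes, had a spliced peak in its last part that was the strongest of the group by p for shALKBH5. That E2F2 peak spans 23509608 to 23516483 on chromosome 1 with 11.8-fold enrichment (log10 p -546) for shNC, and begins at 23509638 with 14.3-fold (log10 p -698) for shALKBH5. Just downstream of the printed E2F2 start lies a further peak, 23531070 to 23531220, that was listed only for shALKBH5. Its fold was 12.6 and its log10 p -35, which is stronger than 67.4% of that list, and it was the strongest by p of all peaks of the group without a partner. E2F3, a related activator, had a peak near its start and one in its last part. The E2F3 peak in its last part had identical borders (chromosome 6, 20488245 to 20491268, 1105 bases in its blocks) with 14.3-fold enrichment (log10 p -433) in shNC and 10.7-fold (log10 p -414) in shALKBH5. Near the start, E2F3 had 16-fold (log10 p -69.3) in shNC and 10.7-fold (log10 p -62.8) in shALKBH5.

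E2F1 had weaker peaks, both toward its gene end. The E2F1 peak nearer the end had 2.37-fold enrichment (log10 p -7.72) in shNC and 5.21-fold (log10 p -19.5) in shALKBH5, and the other had 2.1-fold (log10 p -15.9) in shNC and 1.98-fold (log10 p -15.5) in shALKBH5. The pocket proteins, which bind E2F factors and hold them inactive, differed among themselves. RB1 had a peak only in the shNC list, 35 bp downstream of its start (chromosome 13, 48303786 to 48304025), with 3.84-fold enrichment (log10 p -6.76). RBL1 (p107) had a peak at its 3′ end in both lists, with 6.5-fold (log10 p -11.6) in shNC and 3.21-fold (log10 p -8.7) in shALKBH5. RBL2 (p130) had none.

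Of the 3 CDK inhibitors in the group, 2 had a peak. CDKN1B (p27), which restrains CDK2, had a peak with identical borders in both lists (chromosome 12, 12717807 to 12718885), 439 bp from its start, with 6.71-fold enrichment (log10 p -140) in shNC and 5.96-fold (log10 p -121) in shALKBH5. A second CDKN1B peak, with 1.87-fold enrichment (log10 p -6.55), was in the shNC list alone. CDKN1A (p21), the inhibitor induced by p53, had 1 weak peak in the shNC list alone, at chromosome 6, 36684401 to 36684521, with 2.1-fold enrichment (log10 p -4.19). CDKN2C (p18), which acts on CDK4 and CDK6, had none.

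The genes of the CDK1 switch all had peaks in both lists. WEE1, the kinase that keeps CDK1 off, had an identical peak near its start in both (chromosome 11, 9574011 to 9574341), with 9.03-fold enrichment (log10 p -159) in shNC and 14.6-fold (log10 p -221) in shALKBH5. Toward the WEE1 gene end, 2 weak peaks were in the shNC list alone, with folds of 1.58 and 1.81. CDC25A, a phosphatase that turns CDKs on, had 3 peaks in a row toward its gene end in both lists. Its strongest, with identical borders (chromosome 3, 48158667 to 48159055), was the strongest of the group by p for shNC, with 11.7-fold enrichment (log10 p -625), and had 16-fold (log10 p -544) for shALKBH5. The other CDC25A peaks were 1.75-fold and 2.4-fold enriched in shNC and 1.83-fold and 1.42-fold enriched in shALKBH5.

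CDC25B, which acts at entry into mitosis, had its peaks at internal starts and at its end. The printed CDC25B stretch is the start at 3795789 on chromosome 20, where a peak from 3795760 to 3795910 was listed only for shALKBH5, with 5.73-fold enrichment (log10 p -5.65). The next start downstream, at 3796310, had a peak in both lists, with 2.29-fold (log10 p -6.57) in shNC and 2.09-fold (log10 p -3.91) in shALKBH5. At the CDC25B end, the values were 1.34-fold (log10 p -5.16) in shNC and 1.97-fold (log10 p -19.7) in shALKBH5. CDC25C had 1 peak at its 3′ end in both lists, with 3.48-fold (log10 p -11.7) in shNC and 3.12-fold (log10 p -11) in shALKBH5.

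Mitotic kinases and checkpoint genes had at most 1 peak per list. AURKA, the kinase of centrosomes and spindle poles, had the strongest of these, near its gene end, with 6.78-fold enrichment (log10 p -366) in shNC and 5.44-fold (log10 p -257) in shALKBH5. RefSeq names 15 pseudogenes after 11 of the 37 genes. Only AURKAP1, named after AURKA, had listed peaks, 3 for shNC and 2 for shALKBH5, so AURKA reads may be shared with it. TTK, the checkpoint kinase MPS1, had a peak at its gene end, with 2.98-fold (log10 p -11.8) in shNC and 1.6-fold (log10 p -3.19) in shALKBH5. BUB1B, the checkpoint protein BUBR1, had its peak at the start, with 9.81-fold (log10 p -7.28) for shNC, where it is spliced over 240 bases, and 2.83-fold (log10 p -5.59) for shALKBH5, where it covers 150. AURKB, the kinase of the chromosomal passenger complex, had a weak peak in the shNC list alone, with 1.62-fold (log10 p -4.78). PLK1 and BUB1 had none.

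The genes placed under mitotic exit here ranged from very strong to barely listed peaks. FZR1, an activator of the anaphase-promoting complex also called CDH1, had an identical peak of 1047 bases in both lists (chromosome 19, 3534802 to 3535848), 12.9-fold in each, with log10 p -536 in shNC and -502 in shALKBH5. The spliced FZR1 peak at its printed start had 2.3-fold (log10 p -3.96) in shNC and 6.94-fold (log10 p -18) in shALKBH5. A further FZR1 peak, at the gene end (3538031 to 3538270), was listed for shALKBH5 with 11.8-fold enrichment (log10 p -4.08). It counts as having a partner only because it touches a peak of MFSD12 on the opposite strand, and no FZR1 peak of the shNC list lies there. The span of an MFSD12 peak of the shALKBH5 list overlaps it too, so its gene is uncertain without strand. CDC14A, a phosphatase that reverses CDK phosphorylation, had 1 peak in the shNC list alone (chromosome 1, 100518337 to 100518546), with the highest fold of the group, 25, and a log10 p of -6.6. CDC14B had 1 peak in each list, in different places. Its shNC peak had a fold of 5.8, a log10 p of -2.52 and an FDR of 0.017, and its shALKBH5 peak had a fold of 8.14, a log10 p of -3.35 and an FDR of 0.00275. CDC20 had none.

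MKI67, the gene of the Ki-67 protein that marks proliferating cells and that has a very long internal exon, carried more peaks than any other gene of the group. It had 10 peaks for shNC, a number reached by 37 of the 11306 genes of that list (0.327%), and 9 for shALKBH5, reached by 67 of 12076 (0.555%). The MKI67 peaks covered 9187 bases for shNC and 8675 bases for shALKBH5, 30.9% and 29.1% of the gene span, and 8259 of these bases were covered in both lists. All MKI67 peaks had a partner, but the same stretch was cut differently: 5 peaks of one list or the other met more than 1 partner. In each list, 7 peaks lay more than 17000 bp from the start and covered 7925 bases for shNC and 7204 bases for shALKBH5. The strongest was the spliced peak nearest the gene end, from 128097709 for shNC with 13.3-fold enrichment (log10 p -309), and from 128097739 for shALKBH5 with 13.1-fold (log10 p -332). At the MKI67 start, the peak ended at 128126385 on chromosome 10 in both lists, with 2.95-fold (log10 p -6.87) in shNC and 10.2-fold (log10 p -19.6) in shALKBH5. The other MKI67 peaks ran between 2.57-fold and 9.53-fold in shNC and between 1.73-fold and 6.84-fold in shALKBH5. TOP2A, the DNA topoisomerase of dividing cells, differed from MKI67, with a single weak peak in the shNC list alone (fold 1.43, log10 p -7.34).

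**Figure D2:**
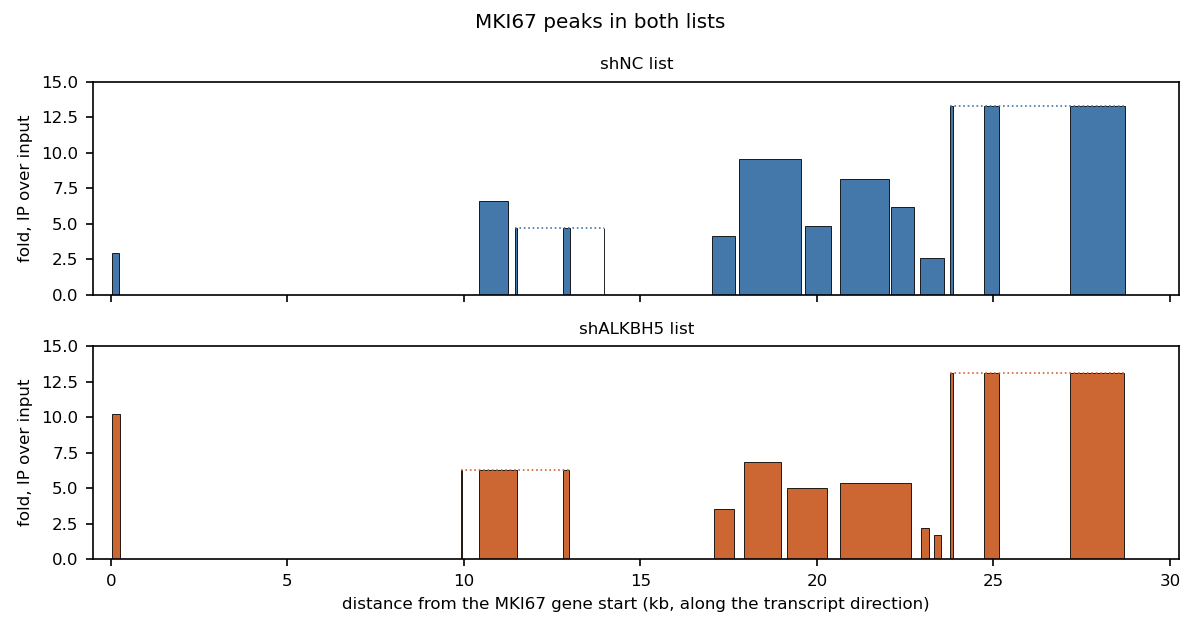
Peaks of MKI67 by distance from the gene start in kb (x axis) and fold of IP over input (y axis, from 0), with the shNC list above and the shALKBH5 list below. Each box is a block of a peak, dotted lines join blocks of a spliced peak, and most covered bases lie between 17 and 29 kb in both lists.

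Over the whole group, 9 of 46 shNC peaks (19.6%, 9.36 to 33.9%) and 9 of 45 shALKBH5 peaks (20.0%, 9.58 to 34.6%) had no partner. The shares over all peaks were 12.6% for shNC and 19.8% for shALKBH5, inside both intervals. These intervals treat peaks as independent, yet MKI67 alone gave 10 shNC and 9 shALKBH5 peaks, all with a partner. The shNC peaks without a partner were at CDC14A, CDKN1A, CDC14B, WEE1 (2 peaks), CDKN1B, RB1, AURKB and TOP2A, with log10 p from -7.34 to -2.52. The shALKBH5 ones were at E2F2, CCND3, CCNE1 (2 peaks), CCNE2, CDK2, CCNB1, CDC14B and CDC25B, with log10 p from -35 to -3.35. In each list, 5 of these 9 (55.6%, 21.2 to 86.3%) were in the weakest quartile of p, as were 76.7% of all shNC and 68.9% of all shALKBH5 peaks without a partner. Peaks with a partner reached -625 in shNC and -698 in shALKBH5. When a partner had to share 50% of the bases of both peaks, 16 shNC and 15 shALKBH5 peaks had none. The share over all peaks was not computed under this stricter rule, so these counts cannot be set against the 12.6% and 19.8%. Of all bases under peaks of the group, 83.6% for shNC and 85.3% for shALKBH5 were covered in both lists, against 85.6% and 81.3% over all peaks. MKI67 holds much of this length, and without it the shares of the group were 78.0% and 77.1%.

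The plot of ranks shows that fold and p ordered these peaks differently. The CDC14A fold was above that of 94.4% of the shNC list while its p was stronger than that of 28.6%. AURKA was the reverse, with a p stronger than that of 96.0% and a fold above that of 51.5% of the shNC list. The end peak of FZR1 in the shALKBH5 list, whose gene is uncertain, lay above 72.4% by fold and above 13.5% by p. The median fold of the group was 3.97 for shNC and 4.93 for shALKBH5, against 6.54 and 6.64 over all peaks of each list, and the median log10 p was -12.8 and -18, against -15.8 and -15.3.

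**Figure D3:**
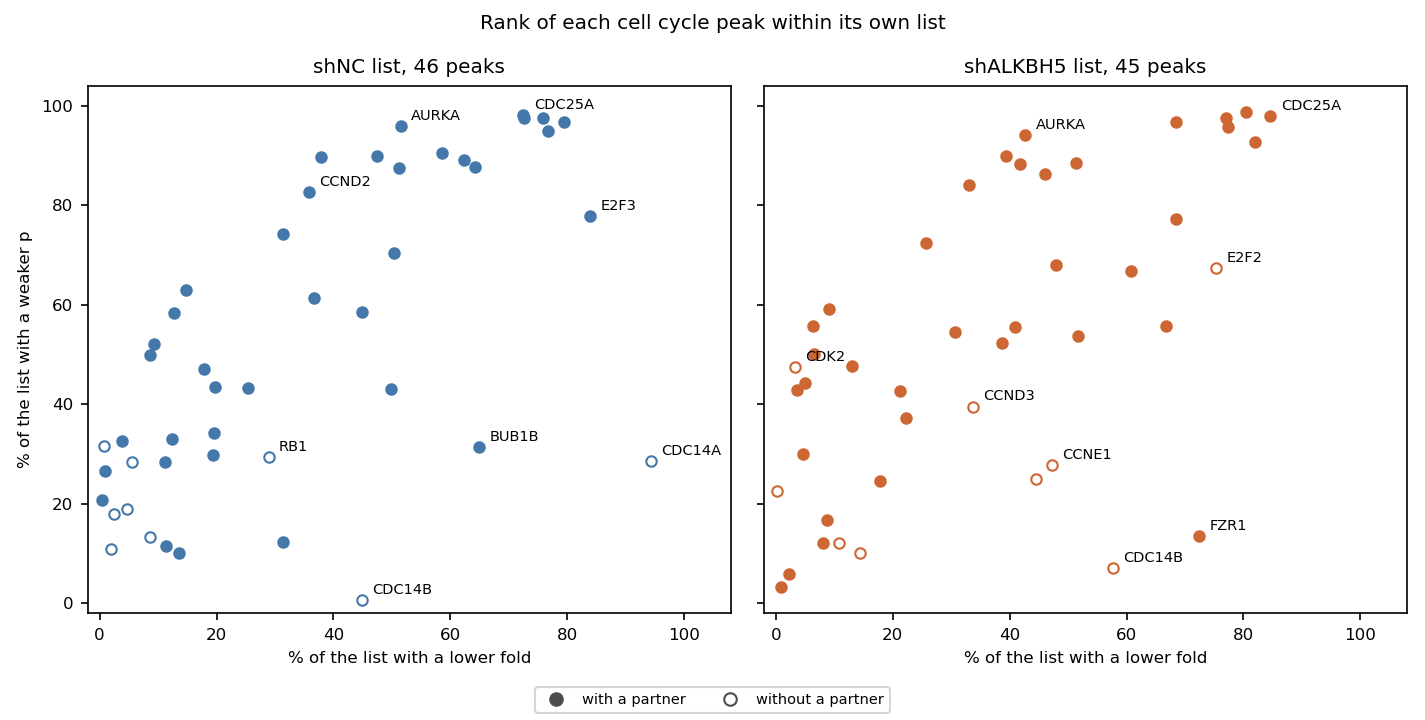
Rank of each peak within its own list, as the percentage of the list with a lower fold (x axis) and with a weaker p (y axis), for 46 shNC peaks (left) and 45 shALKBH5 peaks (right). Open points have no partner in the other list; CDC14A and CDC14B sit low by p at a middle or high fold, and E2F3, CDC25A and AURKA sit high by p.

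Positions along the genes were spread over starts, bodies and ends. A peak counted as at the start when it began before the RefSeq gene start or in the first 500 bp after it, and as at the end when its 3′ edge was under 1000 bp from the gene end. At the start lay 9 of 46 shNC peaks (19.6%) and 10 of 45 shALKBH5 peaks (22.2%, 11.2 to 37.1%), against 11.4% and 14.5% of all peaks placed on a RefSeq gene. At the end lay 9 shNC peaks (19.6%) and 10 shALKBH5 peaks (22.2%), against 23% and 22.1% of all placed peaks. In between lay 28 shNC peaks (60.9%) and 25 shALKBH5 peaks (55.6%), against 65.6% and 63.5%. By this rule 8 genes had a start peak in both lists: CCND1, CCND2, E2F3, CDKN1B, WEE1, BUB1B, FZR1 and MKI67.

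**Figure D4:**
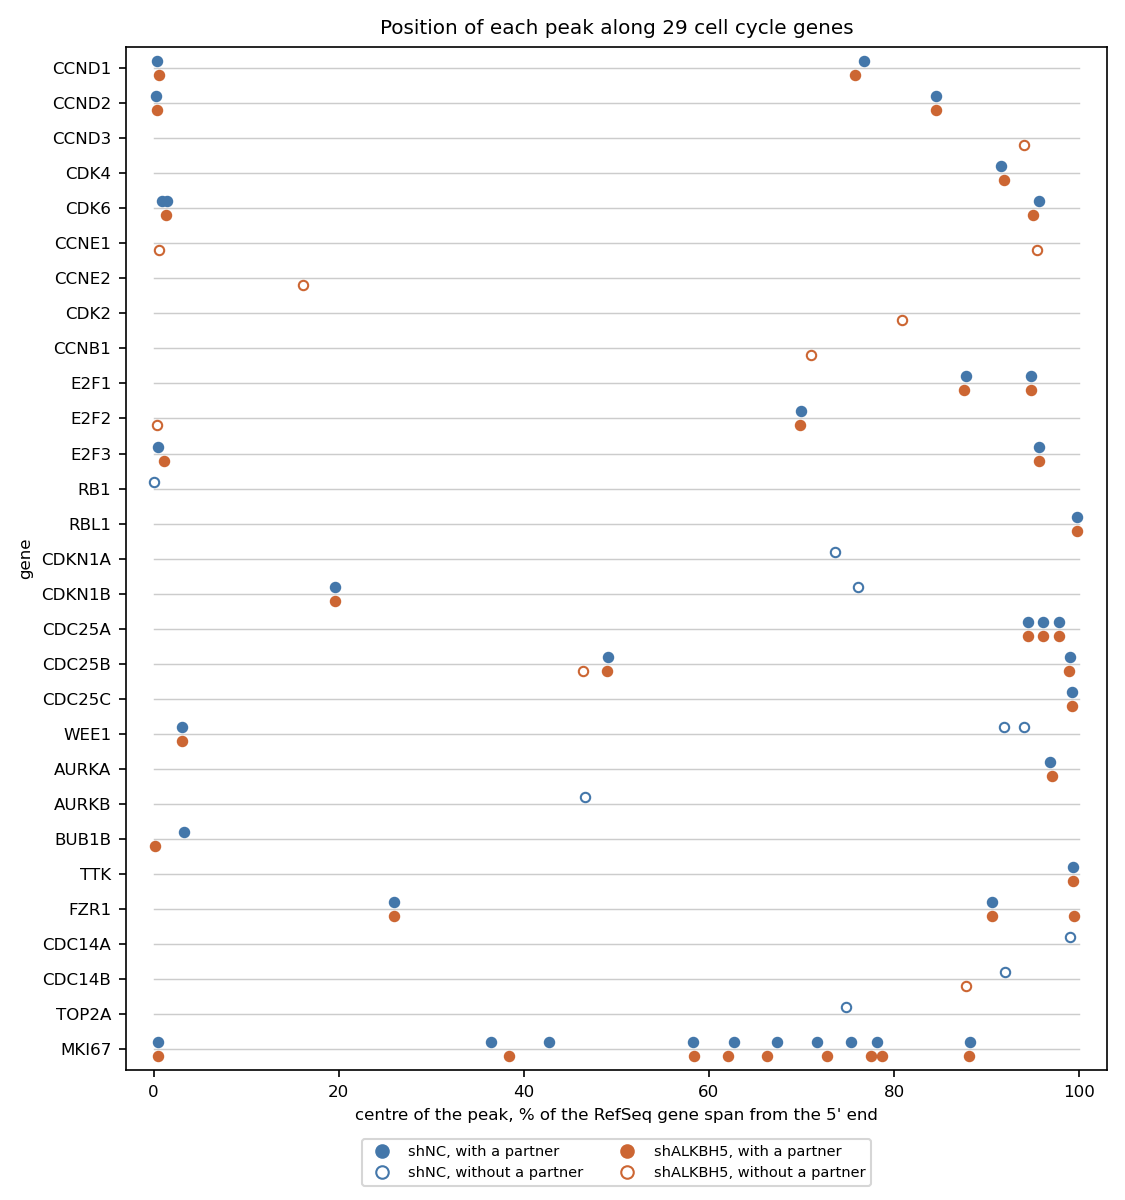
Centre of each peak as a percentage of the RefSeq gene span from the 5′ end (x axis) for the 29 genes with a peak (y axis), with shNC peaks in blue above each line and shALKBH5 peaks in orange below it. Open circles have no partner; most points lie near either end, and the middle of the span holds peaks of CDC25B, AURKB and MKI67.

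When every start in the RefSeq promoter table was used beside the outer edge of the gene, as chosen after seeing the data, 11 shNC peaks (23.9%) and 14 shALKBH5 peaks (31.1%, 18.2 to 46.6%) lay at a start, against 13.3% and 16.7% of all placed peaks. The table holds 49 starts of 30 of the 37 genes and has no entry for AURKA, CCND1, CCND2, CCNE2, CDK2, TTK and WEE1, which kept their gene start. Of the peaks without a partner, 1 of 9 for shNC (RB1, 11.1%, 0.281 to 48.2%) and 4 of 9 for shALKBH5 (E2F2, CCND3, CCNE1 and CDC25B, 44.4%, 13.7 to 78.8%) lay at a start. Over all placed peaks without a partner, the shares were 14.8% for shNC and 31.3% for shALKBH5, so the group stood near the rest of each list. The shALKBH5 peaks at CCND3 and CDC25B were at starts inside the gene span. The map of start peaks places them beside the start peaks shared by both lists.

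**Figure D5:**
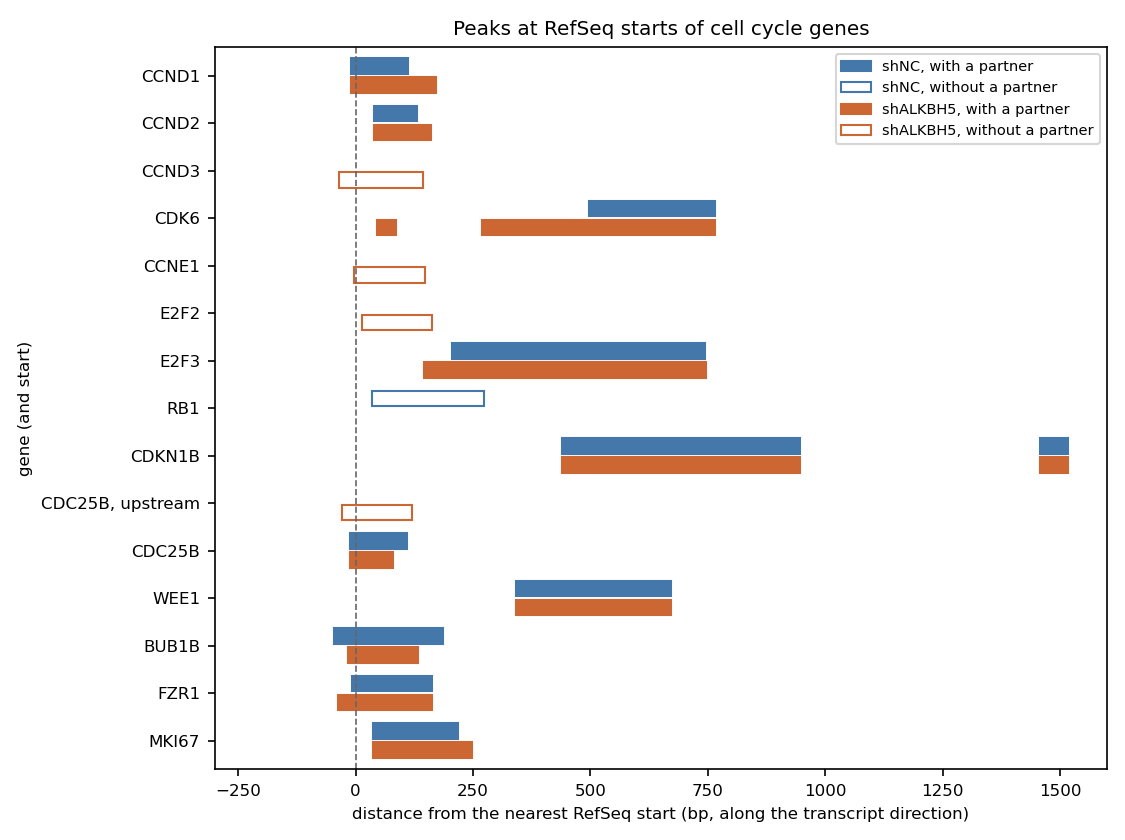
Blocks of peaks at RefSeq starts by distance from the nearest start in bp (x axis, 0 is the start) for 14 genes, with CDC25B on separate lines for its 2 starts. Open boxes have no partner: RB1 in the shNC list, and CCND3, CCNE1, E2F2 and the upstream start of CDC25B in the shALKBH5 list.

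Borders were identical in both lists for 6 peaks, at E2F3, CDC25A, CDKN1B, WEE1, CCND2 and FZR1, which is 13.0% of the shNC and 13.3% of the shALKBH5 peaks of the group, against 12.5% and 11.4% of all peaks. Spliced peaks, with more than 1 block, numbered 9 for shNC (19.6%) and 11 for shALKBH5 (24.4%, 12.9 to 39.5%), against 17.4% and 17.9% of all peaks.

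The start regions of the group, each 250 bases before to 50 after a start, were also read for sequences known from cell cycle promoters, on both strands. CCAAT, the box bound by NF-Y, was in 26 of 49 windows (53.1%) against 34.6% of all 35116 windows, and TTTGAA, the CHR element of late cell cycle genes, was in 13 (26.5%) against 15.2%. The E2F-type sequence TTTGGCGC was in 4 windows (8.16%), at E2F1, E2F2, CDC25A and RBL1, against 0.652% of all, and TTTCCCGC was in 1 (2.04%), at E2F3, against 1.63%. In the printed E2F2 stretch, TTTGGCGC begins 42 bp upstream of the start, and in the printed BUB1B stretch TTTGAA begins 23 bp upstream. These windows overlap where a gene has close starts, and a match says only that the letters are present.

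Other genes of the pathway gave the surroundings of the group. Of 101 further cell cycle genes, 78 had peaks. Both lists held 70 of them, 8 were listed for shALKBH5 alone and 0 for shNC alone. These shares, 89.7%, 10.3% and 0%, stand beside 83%, 11.5% and 5.50% of all genes with a peak. The 8 were CCNG2, CDKN1C, CDKN2A, NEK2, MAD1L1, MCM6, PPP1CB and ARPP19. CDKN2A, the gene of the inhibitors p16 and ARF, had 5 shALKBH5 peaks with folds from 4.3 to 16.3 and log10 p from -11.7 to -4.36. The RefSeq span of an antisense gene, CDKN2B-AS1, overlaps 2 of these 5 peaks, whose gene is uncertain without strand. CDKN1C (p57), another CDK inhibitor, had 2, the stronger with 5.4-fold enrichment (log10 p -27.4). MCM6, a subunit of the replicative helicase, had a start peak with 3.22-fold (log10 p -26.4), and ARPP19, which inhibits the phosphatase opposing CDK1, had one with 3.01-fold (log10 p -13.2). The remaining 4 genes had log10 p of -10.7 or weaker.

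By role, beside the 83% of all genes with a peak that were in both lists, 10 of 14 E2F and DREAM complex genes had peaks, all in both lists, as had 16 of 21 subunits and partners of the ubiquitin ligases APC/C and SCF. Of 16 origin licensing genes, 13 were in both lists and MCM6 only in the shALKBH5 list. Of 11 spindle checkpoint and passenger complex genes, 8 were in both and MAD1L1 only in the shALKBH5 list. Of 19 other cyclins, CDKs and their partners, 10 were in both and CCNG2 only in the shALKBH5 list, and of 8 other checkpoint and entry kinases, 6 were in both and NEK2 only in the shALKBH5 list. Of 7 genes of the mitotic phosphatase branch, 5 were in both. The 5 other CDK inhibitors had the lowest share in both lists: 4 had peaks, 2 of them in both lists (50%). CDKN1C and CDKN2A were only in the shALKBH5 list. Of the peaks of these inhibitors, 1 of 4 for shNC (25%) and 7 of 10 for shALKBH5 (70%) had no partner. The highest folds were at FBXW7, which targets cyclin E for destruction (85.3, log10 p -138), FOXM1, an activator of mitotic genes (45.9, -32), ANAPC1 (35.3, -102) and CCNT1 (29.7, -344) for shNC. For shALKBH5 they were at CUL1, the scaffold of SCF ligases (46.1, -362), PPP2R2A (39.8, -14.3), ANAPC10 (34.8, -26) and CDC16 (29.4, -21.5). Without a partner were 17 of 143 shNC peaks (11.9%) and 26 of 148 shALKBH5 peaks (17.6%) of these genes, near the 12.6% and 19.8% of all peaks.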

How the data were processed

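The authors deposited 1 peak table per condition, each from 1 IP and 1 input library of poly(A) RNA, per the labels' protocols. Software listed in the submitters' processing notes, without roles, was BWA 0.7.12, HOMER 4.9.1 and fastp 0.19.11, with build hg38. The peak caller was not given in the sources used here. Every peak carries, per the file headers, a fold (a ratio of IP over input), a p-value, a log10 p and a log10 FDR. The last 2 were read as a score with no fixed range, since the deposited values pass -100. The FDR cell of 10 member peaks held a spreadsheet error and was not used. Deposited starts count from 0 and were raised by 1. There were no replicates, so no test between conditions was run. Depth is unknown.

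Overlap used blocks, strand ignored. Peaks were placed on RefSeq spans (GRCh38.p14) by symbol, 19850 shNC peaks (88.4%) and 21723 shALKBH5 peaks (88.2%). Exon and UTR annotation and peak sequences were not used here, so the planned share of peaks with GGAC was not computed. Software was numpy 2.4.6, pandas 2.3.3, matplotlib 3.10.9 and SciPy 1.17.1 under Python 3.11.15. Overlap and placement were tested on simulated data. The members and lists were chosen with earlier results of these data known. All 37 members are named, with values for list-only genes, peaks without a partner and the strongest peaks. Other pathway genes are named when in 1 list alone or among the 4 highest folds per list.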

Additional observations from a re-analysis of the deposited data

How the results depend on the processing

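Of 41 recomputed values over 9 results, 37 stayed within 1.5 times the reported count. When peaks under 2 times the lowest listed fold were set aside, genes only in the shALKBH5 list fell from 5 to 3, and shNC peaks at a listed start without a partner went from 1 to 2, the addition being CDC25B. Reciprocal overlap of 50% raised peaks without a partner to 16 in shNC and 15 in shALKBH5, against 9 in each, since it asks for more overlap. The share over all peaks was not computed under that rule. Lists of equal length by p gave 7 shNC-only genes, with TTK and CDC14B added, and 5 shALKBH5-only genes. On the same strand, the end peak of FZR1 also lost its partner, which gave 10 shALKBH5 peaks without one. The use of every listed RefSeq start was chosen after seeing the data. No paired analysis was possible because each condition has 1 peak list and no result comes from a test. Without replicates or read counts, the spread between cultures and the depth behind each peak are unknown.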
